A study of Mus musculus with 4 samples.

Results

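Mitochondrial fatty acid oxidation and ketogenesis are described here through 35 genes of mouse liver, chosen by name: the carnitine shuttle, the acyl-CoA synthetases and dehydrogenases, the later enzymes of the oxidation spiral, the electron transfer flavoproteins, ketone body enzymes, pyruvate dehydrogenase kinases and propionyl-CoA carboxylase. Of these, 30 had a row of their own among the 22849 gene symbols of the table, and each had a single row. The other 5 (Acsl3, Acads, Acad10, Acad11 and Decr1) appeared only in rows shared with another gene, whose values cannot be divided. RNA came from the livers of C57BL/6 males, an inbred strain of mice. Vehicle mice ate a diet with 60% fat, and UAB126 mice the same diet with UAB126 at 1.2 g per kg, both for 12 weeks. UAB126 is a compound known here only by its code. All 4 libraries, 2 per group, therefore came from mice on the high fat diet. The labels give no age, and they do not say whether the numbered libraries came from separate mice, so the p-values measure only the spread between these samples, which may be technical.

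Long-chain fatty acids are activated to acyl-CoA, passed into mitochondria as carnitine esters and shortened in repeated rounds of dehydrogenation, hydration, a second dehydrogenation and thiolytic cleavage. Electrons from the first step reach the respiratory chain through the electron transfer flavoprotein, and the acetyl-CoA formed can be turned into ketone bodies, which the liver exports during fasting. Many of these genes are targets of the nuclear receptor PPAR-alpha. Pyruvate dehydrogenase kinases restrain the entry of glucose carbon into the mitochondrial acetyl-CoA pool.

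The values are FPKM, fragments scaled by transcript length and by library size. Between 10494 and 10772 symbols reached 1 FPKM in a library. Absolute depth is unknown. From the steps between low values, Vehicle replicate 1 had 0.691 of the depth of UAB126 replicate 1, Vehicle replicate 2 had 0.405 of it and UAB126 replicate 2 had 0.702. The FPKM of the 30 genes summed to 5824 and 5913 in the Vehicle libraries, against 4780 and 5646 in the UAB126 libraries. The FPKM of all symbols summed to 5619980 and 11337300 in the Vehicle libraries, against 2299000 and 2771560 in the UAB126 libraries. Because these totals differ between the groups, the sums of the 30 genes are not read as a difference between them. Many of the genes described were abundant: 19 of the 30 lay in the top 10% of tested symbols by mean FPKM, with a median of 143.2 FPKM against 9.30 FPKM for all tested symbols. Differences are UAB126 minus Vehicle on the scale of log2(FPKM + 1), which understates the change of low genes, and ± is limma's moderated standard error (n = 2 per group).

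In the reported fit, the transcripts of mitochondrial fatty acid oxidation differed in both directions with UAB126, and their median difference was near that of all tested symbols. None of the 30 genes passed the threshold of an adjusted p under 0.05 (limma, lowest adjusted p = 0.277), where 0.139% of all 10786 tested symbols did. At an unadjusted p under 0.05, 3 of the 30 genes passed, where 13.4% of all tested symbols did: Slc22a5 and Acsl4 with higher values and Pdk1 with lower values. Both UAB126 libraries lay above both Vehicle libraries in 7 genes (23.3%, against 22.7% of all tested symbols) and below them in 7 (23.3%, against 26.9%), and the groups overlapped in 16. These shares are near those of all genes. The median log2 difference of the 30 genes was 0.01, with quartiles of -0.19 and 0.21, and that of all tested symbols was -0.03, with quartiles of -0.32 and 0.23. This split and the median depended on scaling, so an unchanged level of the group is not established. Under quantile normalization 15 of the 30 lay above and 2 below, with a median of 0.29. Of all tested symbols, 25.6% then lay above and 22.9% below, with a median of 0.04.

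**Figure D1:**
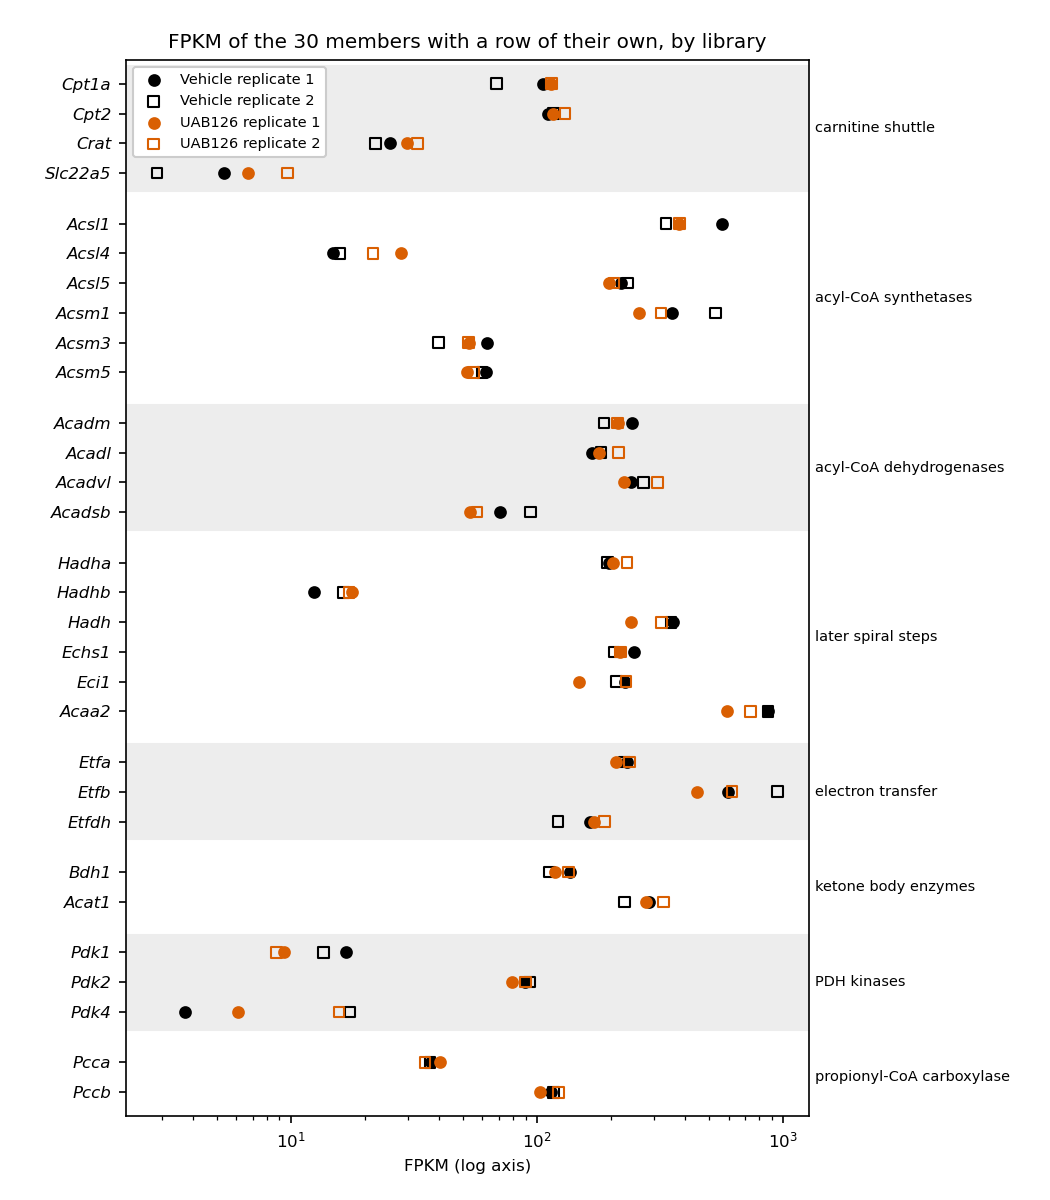
FPKM (log axis) of the 30 genes with a row of their own, ordered by role, with a point per library (black, Vehicle; orange, UAB126; filled circles, replicate 1; open squares, replicate 2). Slc22a5, Hadhb, Pdk1 and Pdk4 are the lowest of the 30, while Acaa2 and Etfb reach the highest values, 866.8 and 947.4 FPKM.

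The precision of 2 libraries per group sets how small a difference could be seen. The 95% interval of the difference lay within -1 and 1 on the log2 scale (a factor of 2) in 20 of the 30 genes, and reached past it in 10. The median half-width of the interval was 0.58.

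**Figure D2:**
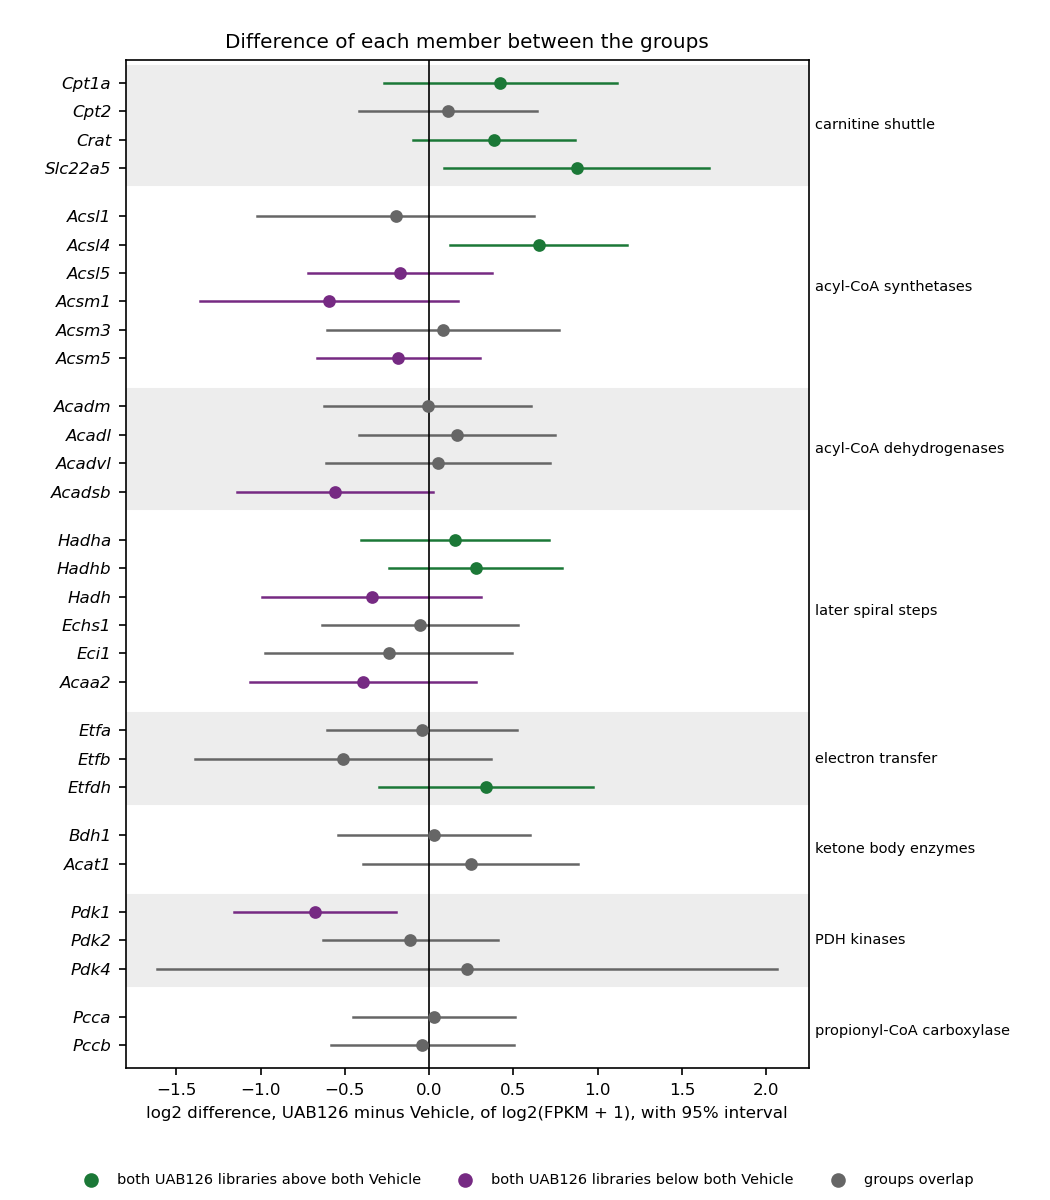
Log2 difference (UAB126 minus Vehicle, of log2(FPKM + 1)) of each of the 30 genes with its 95% interval from limma, n = 2 per group; green, both UAB126 libraries above both Vehicle libraries; purple, below; grey, overlapping. The points run from -0.68 (Pdk1) to 0.87 (Slc22a5), and the interval of Pdk4 is the widest.

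In the carnitine shuttle, all 4 genes had positive differences, with a median of 0.40, and all 4 kept that sign in each of the 14 alternative settings. In 3 of them both UAB126 libraries lay above both Vehicle libraries, where 22.7% of all tested symbols did, and none passed the adjusted threshold. These 3, Slc22a5, Cpt1a and Crat, have annotated transcripts of 3062, 4317 and 4224 bases. The part of length in their differences was not tested. Slc22a5 (chromosome 11, 53864542 to 53891660, minus strand), which encodes the carnitine importer OCTN2 of the plasma membrane, was at 5.36 and 2.87 FPKM in the Vehicle livers, against 6.72 and 9.70 in the UAB126 livers. Both UAB126 values were higher, but the Vehicle libraries themselves differed 1.87-fold. Its log2 difference was 0.87 ± 0.31 (limma, unadjusted p = 0.0347, adjusted p = 0.342), the highest of the 30, and it was 0.52 without Vehicle replicate 2 and 1.23 without Vehicle replicate 1.

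Cpt1a (chromosome 19, 3322334 to 3385733, plus strand) encodes the liver carnitine palmitoyltransferase of the outer mitochondrial membrane, the gate of the pathway. It was at 105.9 and 68.6 FPKM in the Vehicle livers, against 114.4 and 114.7 in the UAB126 livers. The UAB126 libraries were nearly equal and above both Vehicle libraries, of which replicate 2 was the lower. The log2 difference was 0.42 ± 0.27 (limma adjusted p = 0.502), and 0.11 without Vehicle replicate 2. Cpt2, which releases the acyl group again inside the inner membrane, was at 110.5 and 116.9 FPKM in the Vehicle livers, against 116.3 and 129.9 in the UAB126 livers, with overlapping groups and a difference of 0.11 ± 0.21. Crat, carnitine acetyltransferase, which moves acetyl groups between CoA and carnitine, was at 25.4 and 22.1 FPKM in the Vehicle livers, against 29.7 and 32.7 in the UAB126 livers. Its groups did not overlap (log2 difference 0.38 ± 0.19, limma adjusted p = 0.428).

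The acyl-CoA synthetases, which activate fatty acids, had differences of both signs. Of the 6 with a row of their own, 2 had positive and 4 negative differences (median -0.18). Acsl4 (X chromosome, 142317993 to 142390535, minus strand), which prefers arachidonic acid, was at 14.9 and 15.9 FPKM in the Vehicle livers, against 28.2 and 21.6 in the UAB126 livers. The Vehicle libraries agreed closely and both UAB126 libraries were above them, for a log2 difference of 0.65 ± 0.21 (limma, unadjusted p = 0.0239, adjusted p = 0.314). Acsl1, the main long-chain synthetase of liver, was more abundant, at 563.9 and 333.7 FPKM in the Vehicle livers, against 377.7 and 378.4 in the UAB126 livers. Both UAB126 values fell between the Vehicle values. The ratio of Acsl1 to Acsl4 within a library was 37.9 and 21.0 in Vehicle and 13.4 and 17.5 with UAB126.

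Acsl5, a further long-chain synthetase, was at 219.9 and 232.5 FPKM in the Vehicle livers, against 195.6 and 205.6 in the UAB126 livers, lower in both libraries by little (log2 difference -0.17 ± 0.22). The medium-chain synthetase gene Acsm1 was at 353.7 and 532.0 FPKM in the Vehicle livers, against 259.0 and 318.5 in the UAB126 livers. Its groups did not overlap either (log2 difference -0.59 ± 0.30, limma adjusted p = 0.431). The difference was -0.30 without Vehicle replicate 2, -0.89 without Vehicle replicate 1 and -0.19 under quantile normalization. Of its relatives, Acsm5 was at 62.0 and 59.7 FPKM in the Vehicle livers, against 51.9 and 55.2 in the UAB126 livers, and Acsm3 ran from 39.7 to 62.8 FPKM with the UAB126 libraries between the Vehicle libraries. The row that names Acsl3 together with Utp14b was at 8.35 and 5.76 FPKM in the Vehicle livers, against 12.9 and 8.55 in the UAB126 livers.

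The acyl-CoA dehydrogenases carry out the first oxidation, each on a range of chain lengths. The long-, medium- and very-long-chain enzymes of the straight-chain spiral differed by 0.17, -0.01 and 0.05 in the reported fit, with overlapping groups. Under quantile normalization they differed by 0.51 (limma, unadjusted p = 0.0371, adjusted p = 0.348), 0.35 and 0.40. The UAB126 libraries of the long- and very-long-chain genes then lay above the Vehicle libraries, as did those of 25.6% of all tested symbols. Acadm, the medium-chain enzyme, was at 243.5 and 187.3 FPKM in the Vehicle livers, against 213.0 and 211.7 in the UAB126 livers. Both UAB126 values lay between the Vehicle values, the log2 difference was -0.01 ± 0.24, and its 95% interval of -0.62 to 0.61 corresponds to at most 1.54-fold lower or 1.52-fold higher. Acadvl, the very-long-chain enzyme, was at 240.6 and 271.4 FPKM in the Vehicle livers, against 226.6 and 309.2 in the UAB126 livers, so that the UAB126 libraries enclosed the Vehicle libraries. Acadl, the long-chain enzyme, was at 166.8 and 182.1 FPKM in the Vehicle livers, against 178.4 and 214.8 in the UAB126 livers.

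Acadsb, the short/branched-chain enzyme that also serves isoleucine breakdown, differed more in the reported fit. It was at 71.1 and 94.4 FPKM in the Vehicle livers, against 53.5 and 57.1 in the UAB126 livers, without overlap (log2 difference -0.56 ± 0.23, limma, unadjusted p = 0.0561, adjusted p = 0.381). The other dehydrogenases had only shared rows. The row of Acads and Gm13826 ran from 113.8 to 167.3 FPKM with overlapping groups, as did that of Acad10 and Acad12, from 15.0 to 17.5 FPKM.

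Among the enzymes of the later steps, the trifunctional protein is built from an alpha subunit (Hadha, with the hydratase and long-chain dehydrogenase) and a beta subunit (Hadhb, the thiolase). Their genes lie head to head on chromosome 5, Hadha at 30118304 to 30155162 on the minus strand and Hadhb at 30155248 to 30184593 on the plus strand. Only 85 bases, chr5:30155163-30155247, separate their outermost annotated starts. The sequence is shown because both genes start from it while their listed FPKM differ. It is the plus strand of GRCm38.p6 (mm10) from the RefSeq promoter table, 69.4% G or C, with GGGCGG (the GC box letters, searched on both strands) in capitals at its 2 matches. That motif occurred in 22.8% of the 32851 promoters of the table within the same length before the start, and a match is no evidence of binding.
Hadha to Hadhb: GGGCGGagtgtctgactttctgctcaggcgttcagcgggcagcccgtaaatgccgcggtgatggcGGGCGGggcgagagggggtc

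Hadha was at 196.8 and 193.7 FPKM in the Vehicle livers, against 203.3 and 232.1 in the UAB126 livers, and Hadhb at 12.4 and 16.3 FPKM in the Vehicle livers, against 17.7 and 17.2 in the UAB126 livers. In both genes the UAB126 libraries were above the Vehicle libraries, by 0.15 ± 0.22 and 0.28 ± 0.20 on the log2 scale, with limma adjusted p = 0.765 and 0.546. Hadha differed by 0.53 ± 0.20 under quantile normalization (limma, unadjusted p = 0.0435, adjusted p = 0.367), and Hadhb by 0.09 without Vehicle replicate 1 and 0.46 without Vehicle replicate 2. The FPKM listed for Hadha was 11.5 to 15.9 times that for Hadhb, in libraries of both groups. How the authors' quantification assigned fragments to these neighbouring genes could not be checked from the table, so this ratio may not be one of transcript levels.

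Hadh, the dehydrogenase for shorter chains, was at 356.9 and 349.8 FPKM in the Vehicle livers, against 241.5 and 321.1 in the UAB126 livers, and Acaa2, the mitochondrial thiolase, at 865.3 and 866.8 FPKM in the Vehicle livers, against 588.7 and 738.3 in the UAB126 livers. Both pairs of Vehicle libraries agreed within 2.03% and 0.166%, and both UAB126 libraries were lower, replicate 1 more so. The log2 differences were -0.34 ± 0.26 and -0.39 ± 0.27 (limma adjusted p = 0.549 and 0.513). With quantile normalization Acaa2 had a difference of 0.10. Echs1, the short-chain hydratase, ran from 205.8 to 247.9 FPKM, and Eci1, an isomerase for unsaturated chains, from 147.8 FPKM in UAB126 replicate 1 to 230.2 FPKM in UAB126 replicate 2, both with overlapping groups. The row of Decr1 (a reductase for unsaturated chains) and Ripk2 was at 106.7 and 101.8 FPKM in the Vehicle livers, against 90.7 and 115.8 in the UAB126 livers.

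The electron transfer flavoprotein takes electrons from the dehydrogenases and hands them to its ubiquinone oxidoreductase. Its alpha subunit gene Etfa was at 232.6 and 226.8 FPKM in the Vehicle livers, against 208.8 and 237.5 in the UAB126 livers. The beta subunit gene Etfb, with an annotated transcript of 893 bases the shortest of the 30, was at 594.2 and 947.4 FPKM in the Vehicle livers, against 446.0 and 618.8 in the UAB126 livers. The ratio of Etfb to Etfa was 2.55 and 4.18 in Vehicle and 2.14 and 2.61 with UAB126, so that Vehicle replicate 2 stood apart. The oxidoreductase gene Etfdh was at 164.6 and 121.6 FPKM in the Vehicle livers, against 170.3 and 188.3 in the UAB126 livers (log2 difference 0.34 ± 0.25, limma adjusted p = 0.547), higher in both libraries.

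Of the ketone body enzymes, Bdh1, which interconverts acetoacetate and 3-hydroxybutyrate, was at 135.8 and 112.3 FPKM in the Vehicle livers, against 118.9 and 133.9 in the UAB126 livers. Acat1, the mitochondrial acetoacetyl-CoA thiolase, was at 284.0 and 226.3 FPKM in the Vehicle livers, against 277.1 and 326.7 in the UAB126 livers. The groups overlapped in both genes, with differences of 0.03 ± 0.23 and 0.25 ± 0.25. The 95% interval for Bdh1 runs from -0.54 to 0.60. Pcca and Pccb, the subunits of propionyl-CoA carboxylase, which handles the remainder of odd-chain fatty acids, were at 35.1 to 40.4 FPKM and 103.2 to 122.0 FPKM, and differed by 0.03 ± 0.19 and -0.04 ± 0.21.

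Each of the 3 pyruvate dehydrogenase kinase genes had its own pattern, and the differences between them were not tested. Pdk1 (chromosome 2, 71873224 to 71903858, plus strand), a kinase known for its induction by hypoxia, was at 16.8 and 13.6 FPKM in the Vehicle livers, against 9.43 and 8.76 in the UAB126 livers. Both UAB126 libraries were lower, by more than the spread within either group. Its log2 difference was -0.68 ± 0.19 (limma, unadjusted p = 0.0147, adjusted p = 0.277), the lowest of the 30. It stayed between -0.82 and -0.53 in all 14 alternative settings and never passed the adjusted threshold. Pdk2, the most abundant of the kinases here, was at 89.3 and 93.1 FPKM in the Vehicle livers, against 79.0 and 89.97 in the UAB126 livers, with overlapping groups.

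Pdk4, the kinase induced by fasting and by PPAR-alpha, varied most within groups. It was at 3.71 and 17.4 FPKM in the Vehicle livers, against 6.09 and 15.7 in the UAB126 livers. The libraries of a group differed 4.70-fold in Vehicle and 2.58-fold with UAB126, replicate 2 being the higher in both. The difference between the groups was 0.23 ± 0.73, with a 95% interval of -1.61 to 2.07, which spans values from 3.06-fold lower to 4.19-fold higher.

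Libraries within a group also differed across the set. UAB126 replicate 2 exceeded UAB126 replicate 1 in 24 of the 30 genes (median log2 difference 0.16, against 0.05 over all tested symbols). Between the Vehicle libraries, replicate 2 was the higher in 13 genes and the lower in 17. The median absolute difference over the 30 genes was 0.23 within Vehicle and 0.18 within UAB126.

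By length class, the median difference rose with transcript length among these genes, as among all tested symbols. The trend within the 30 genes was not tested, and Pdk1, the lowest of them, has a transcript of 5185 bases. The 5 genes with transcripts under 2000 bases had a median log2 difference of -0.24, the 8 genes of 2000 to 3000 bases -0.02, and the 17 of 3000 bases or more 0.15. For all tested symbols with a length the corresponding medians were -0.29, -0.07 and 0.08. All 7 genes with UAB126 above Vehicle were in the longest class, as were 4 of the 7 with UAB126 below it. Across the 30 genes the Spearman correlation of difference and length was 0.22, and across 9770 tested symbols 0.33, all drawn from the same 4 libraries. With the length trend removed, Slc22a5, Acsl4 and Pdk1 differed by 0.89, 0.54 and -0.78. In the same fit, Etfb went from -0.51 to -0.04 and Acaa2 from -0.39 to -0.15, while Acadsb went from -0.56 to -0.68 and Acadl from 0.17 to 0.32. The groups of Acaa2, Hadha and Hadhb then overlapped, and those of Acadl, Cpt2 and Etfa no longer did. Whether length caused any of the differences was not tested.

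**Figure D3:**
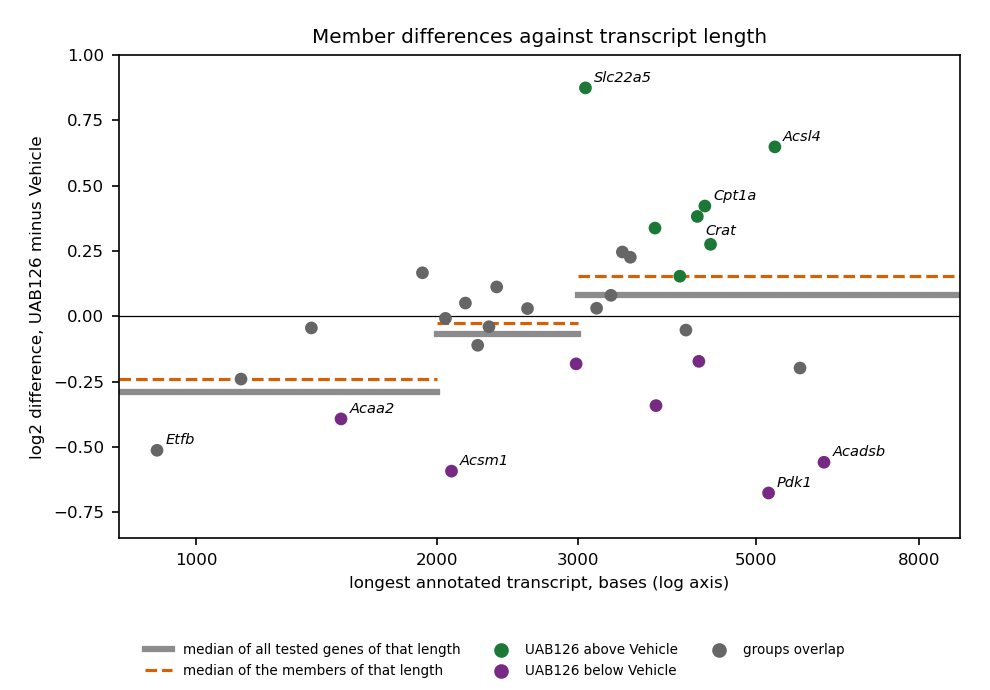
Log2 difference (UAB126 minus Vehicle) of the 30 genes against the longest annotated transcript (bases, log axis), with points coloured by whether the groups overlap, and medians per length class for these genes (dashed) and for all tested symbols (grey). The medians of the 30 genes go from -0.24 to -0.02 and 0.15, beside -0.29, -0.07 and 0.08 for all symbols.

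Other genes of the pathway were read from 4 lists of 49 genes, of which 37 were tested. None passed the adjusted threshold (limma). At an unadjusted p under 0.05, 4 had higher and 3 lower values, where 13.4% of all tested symbols had one. Both UAB126 libraries were above both Vehicle libraries in 10 (22.7% of all tested symbols) and below them in 12 (26.9%). The median log2 difference was -0.03, as over all tested symbols. Slc25a20, the carnitine-acylcarnitine carrier of the inner membrane, ran from 87.4 to 124.3 FPKM with a difference of 0.00 ± 0.26.

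Some of these genes stood further from 0. Bdh2, a cytosolic dehydrogenase named for its likeness to Bdh1, was at 32.1 and 56.1 FPKM in the Vehicle livers, against 17.0 and 19.5 in the UAB126 livers (log2 difference -1.18 ± 0.30, limma, unadjusted p = 0.0103). Hsd17b10, a mitochondrial dehydrogenase of short-chain and branched substrates, was at 537.1 and 703.5 FPKM in the Vehicle livers, against 159.6 and 277.8 in the UAB126 livers (-1.54 ± 0.35). Its annotated transcript has 1001 bases, and the part of length in this difference was not tested. Echdc3 was at 70.6 and 86.0 FPKM in the Vehicle livers, against 38.7 and 50.1 in the UAB126 livers. Slc16a1, a carrier of lactate and ketone bodies, was at 10.9 and 11.3 FPKM in the Vehicle livers, against 15.6 and 16.2 in the UAB126 livers (0.48 ± 0.17).

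Among the partners of the pyruvate dehydrogenase kinases, 3 of 8 tested genes had an unadjusted p under 0.05, where 13.4% of all tested symbols did. All 3 had higher values, and 0 passed the adjusted threshold (limma). Both UAB126 libraries lay above both Vehicle libraries in 4 of the 8 and below them in 1. Of all tested symbols, 22.7% and 26.9% did. Pdp2, the phosphatase that opposes the kinases, was at 11.5 and 9.22 FPKM in the Vehicle livers, against 15.5 and 14.4 in the UAB126 livers. Dlat, the acetyltransferase core of the complex, was at 13.9 and 14.6 FPKM in the Vehicle livers, against 18.99 and 20.6 in the UAB126 livers. Mpc1, a subunit of the mitochondrial pyruvate carrier, was at 11.4 and 7.86 FPKM in the Vehicle livers, against 13.8 and 23.5 in the UAB126 livers. The catalytic subunit gene Pdha1 was at 65.6 and 64.8 FPKM in the Vehicle livers, against 62.4 and 62.5 in the UAB126 livers.

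Of 12 regulators of the pathway, 7 had both UAB126 libraries above both Vehicle libraries and 2 below. Of all tested symbols, 22.7% and 26.9% did. The median log2 difference of the regulators was 0.23. Of those above, Ppard, Ppargc1a, Ppargc1b, Rxra, Sirt1 and Lpin1 have transcripts of 3000 bases or more, and Nr1d1 one of 2721. Of those below, Sirt3 has one of 3206 bases and Sirt5 one of 2425. Ppard, Ppargc1a, Ppargc1b and Sirt1 averaged under 5 FPKM. The part of length in these differences was not tested. Ppara itself was at 115.6 and 71.6 FPKM in the Vehicle livers, against 82.2 and 99.8 in the UAB126 livers, a difference of -0.01 ± 0.30. Sirt5, a mitochondrial desuccinylase, was at 33.0 and 50.3 FPKM in the Vehicle livers, against 23.2 and 19.97 in the UAB126 livers. Lpin1, a phosphatidate phosphatase and coactivator, was at 11.5 and 14.5 FPKM in the Vehicle livers, against 27.4 and 74.3 in the UAB126 livers.

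PPAR-alpha targets outside mitochondrial oxidation covered a wider range than the mitochondrial genes. Of 14 tested, 7 had an unadjusted p under 0.05 (5 higher, 2 lower), and Fgf21 alone passed the adjusted threshold (limma). Fgf21, a hormone of the fasted liver, was at 4.51 and 3.44 FPKM in the Vehicle livers, against 67.6 and 111.1 in the UAB126 livers (adjusted p = 0.0345, limma). Cyp4a10, a fatty acid hydroxylase, was at 234.1 and 73.4 FPKM in the Vehicle livers, against 305.2 and 733.6 in the UAB126 livers. Its relative Cyp4a14 was at 275.4 and 46.4 FPKM in the Vehicle livers, against 1302 and 2655 in the UAB126 livers, and Ehhadh, the bifunctional enzyme of peroxisomal oxidation, at 118.5 and 66.6 FPKM in the Vehicle livers, against 260.0 and 324.5 in the UAB126 livers. Acot2, a mitochondrial thioesterase, was at 4.91 and 3.98 FPKM in the Vehicle livers, against 11.3 and 26.3 in the UAB126 livers. In the other direction, Fitm1 was at 144.7 and 138.2 FPKM in the Vehicle livers, against 14.9 and 33.4 in the UAB126 livers, and Txnip at 110.0 and 89.1 FPKM in the Vehicle livers, against 37.8 and 51.4 in the UAB126 livers. The difference in spread between these genes and the mitochondrial ones was not tested.

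**Figure D4:**
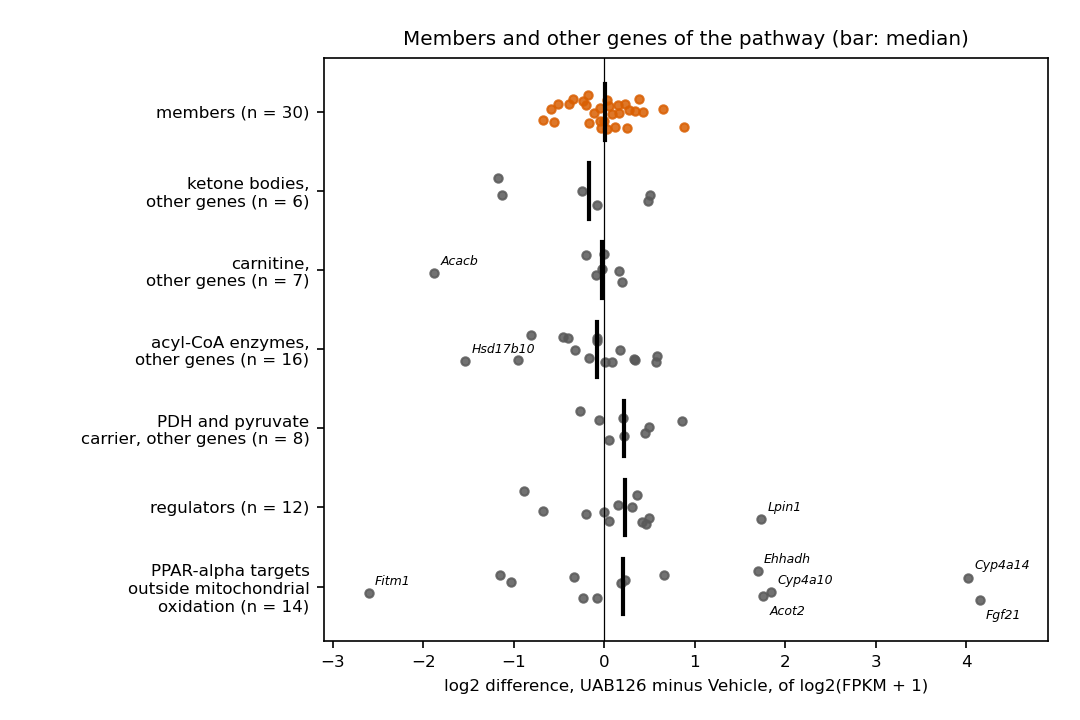
Log2 difference (UAB126 minus Vehicle, of log2(FPKM + 1)) of the 30 genes (orange) and of the tested genes of 6 other lists (grey), with the median as a bar; genes beyond 1.5 in size are named. The 30 genes lie between -0.68 and 0.87, while Fgf21 and Cyp4a14 lie at 4.15 and 4.02.

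Markers of the cells in liver were read beside these values. In bulk tissue, fewer cells of a type and less RNA per cell cannot be told apart. Of 11 tested hepatocyte markers, 6 had both UAB126 libraries below both Vehicle libraries and 1 above, where 26.9% and 22.7% of all tested symbols did. Their median log2 difference was -0.75. Of those below, Ttr, Apoa1, Asgr1, Asgr2 and Serpina1a have transcripts under 2000 bases, and Fgb one of 3810. Apob, Cps1 and Hnf4a, of 13934, 5555 and 4362 bases, differed by -0.005, -0.17 and 0.46, and Ass1, of 1696 bases, by -0.25. The part of length in these differences was not tested. Albumin (Alb), which is among these markers with a difference of -7.49, is listed at 0 in every library but Vehicle replicate 2, where it is at 32243 FPKM. How the authors' quantification gave these zeros could not be checked from the table, so they are not read as absence of the transcript. Macrophages also express Acsl4. Their 10 markers summed to 130.7 and 389.9 FPKM in the Vehicle livers, against 281.7 and 358.9 in the UAB126 livers, with none at 0. Of the 10, 3 were higher without overlap, beside 22.7% of all tested symbols. The part of macrophages in the Acsl4 difference was not tested. Both UAB126 libraries were above both Vehicle libraries in 2 of 7 endothelial and 1 of 7 stellate cell markers and below them in none, and below them in 1 of 5 cholangiocyte, 1 of 3 adipocyte and the 1 tested erythroid marker. Of all tested symbols, 22.7% lay above and 26.9% below, and lists this short are not read as a shift of a cell type. The groups overlapped in the 2 lymphocyte and 2 neutrophil markers tested.

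**Figure D5:**
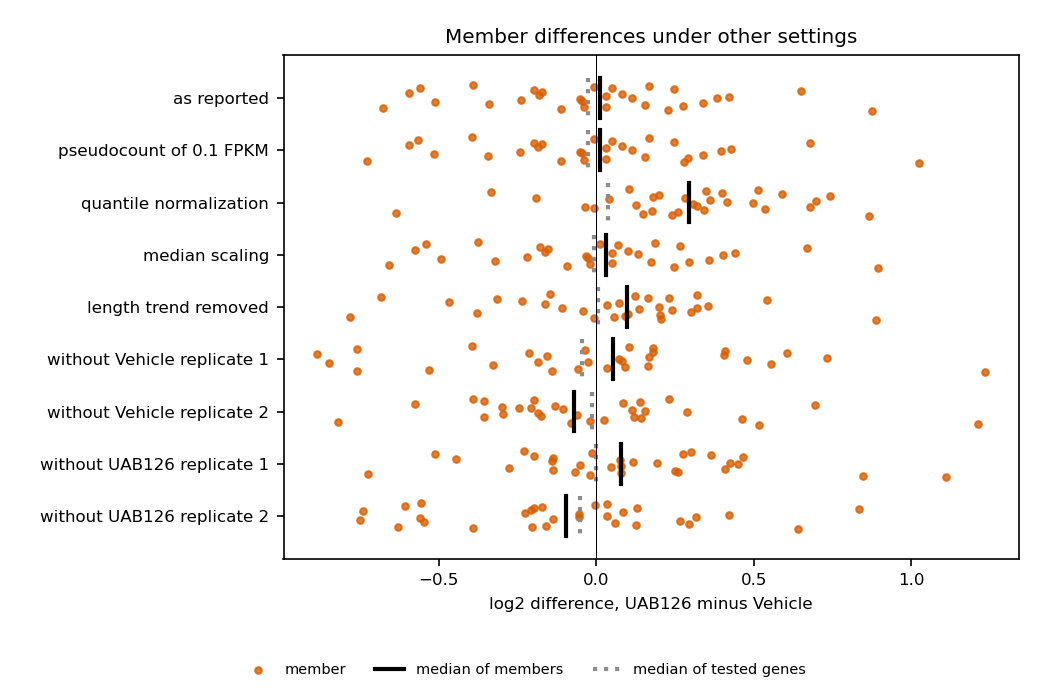
Log2 differences (UAB126 minus Vehicle) of the 30 genes as reported and under 8 of the 14 alternative settings, with the median of the 30 genes (black) and of all tested symbols (dotted). The median of the 30 stays between -0.10 and 0.10 except after quantile normalization, where it is 0.29.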

How the data were processed

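Liver RNA was measured by polyadenylated RNA sequencing from both fragment ends, per the labels' protocols. The authors deposited 1 table of FPKM values with a column per library. Trim Galore 0.4.1, Cuffdiff, Cufflinks 2.2.1, STAR 2.5.1b and the mm10 build are named, with no order or role, per the submitters' processing notes; annotation and settings: not given in the sources used here. FPKM values carry no fragment counts, so no count test was run. For relative depth, 42.8% to 45.6% of ratios between rows under 0.3 FPKM were whole within 0.01, against 0.217% to 0.795% with a wrong step.

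Of 27216 rows, 3634 without a symbol were left out, same-symbol rows were summed and 595 rows naming several genes kept their joint name. All 30 genes overlapped their GENCODE M21 (GRCm38) position. Symbols averaging 1 FPKM or more (10786) were fitted on log2(FPKM + 1) with limma 3.58.1 in R 4.3.3 (intensity trend, group only, two-sided, Benjamini-Hochberg over all tested symbols), with 5.35 total degrees of freedom, of which 2 are residual. An exact permutation of 2 against 2 libraries reaches 0.333 at best. On simulated data of 10786 genes, 98 of 100 changes of 2 and 100 of 100 changes of 4 on the log2 scale were recovered, and 26 of the unchanged genes were called. Smaller changes were not simulated, and the 30 genes differed by -0.68 to 0.87, so the recovery of changes of their size is unknown. The simulated noise was independent between genes and held no length or scaling trend. All 35 genes were accounted for; values in every library were given where groups did not overlap or the unadjusted p was under 0.05, for 7 enzymes in any case and for further genes that complete a role. For the other lists, values were given at an unadjusted p under 0.05 and for Slc25a20 and Ppara; Pdha1 was chosen after its values were seen. The genes and lists were chosen with earlier results of these data known. Other numbers came from scipy 1.17.1, numpy 2.4.6 and pandas 2.3.3 under Python 3.11.15. Alternatives are in the closing section. Some results under these rules are not reported here.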

Additional observations from a re-analysis of the deposited data

How the results depend on the processing

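None of the 30 genes passed the adjusted threshold (limma) in any of the 14 alternatives; the lowest adjusted p was 0.0635, for Slc22a5 without Vehicle replicate 1. Against 15 of all tested symbols in the reported fit, 27 passed with a pseudocount of 0.1 FPKM, 23 with median scaling, 24 with quantile normalization and 0 with no filter on low values (1764 at an unadjusted p under 0.05). Leaving out 1 library gave 0 (without UAB126 replicate 2, with 737 at an unadjusted p under 0.05) to 442 (without Vehicle replicate 1), and 56 without Vehicle replicate 2. With the replicate block, 148 symbols passed and 6 of the 30 genes, against 3, had an unadjusted p under 0.05, beside 2525 of all tested symbols, against 1446. The deviations of same-numbered libraries correlated at 0.178 across genes, with only 2 numbers, so the labels share a number and are not taken as pairs. Quantile normalization also gave 6 genes at an unadjusted p under 0.05 (limma), beside 1419 of all tested symbols. It put 15 above and 2 below without overlap (25.6% and 22.9% of all tested symbols), with a median of 0.29. Without 1 library, 8 to 14 lay above and 8 to 13 below, and the median ran from -0.10 to 0.08. Of all tested symbols, 33.8% to 37.7% then lay above and 34.5% to 44.3% below. In these fits 1 library alone in an arm was assumed to vary like the others.

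Of the 30 genes, 15 kept their sign throughout. Quantile normalization turned Acsl1 (0.20), Acsl5 (0.18), Acsm5 (0.040), Acadm (0.35), Echs1 (0.31), Eci1 (0.12), Acaa2 (0.10), Etfa (0.32), Pdk2 (0.15) and Pccb (0.26). Removal of the length trend turned Acadm (0.12), Eci1 (0.13), Etfa (0.24) and Pccb (0.054), and median scaling Acadm (0.011). Over the fits without 1 library, ranges that crossed 0 were -0.20 to 0.18 for Acadm, -0.17 to 0.27 for Acadvl, -0.58 to 0.18 for Acsl1, -0.24 to 0.40 for Acsm3, -0.11 to 0.17 for Bdh1, -0.19 to 0.081 for Echs1, -0.56 to 0.077 for Eci1, -0.14 to 0.048 for Etfa, -0.068 to 0.13 for Pcca, -0.16 to 0.080 for Pccb and -0.76 to 1.21 for Pdk4. Among genes without overlap that kept their sign, the differences ran from -0.76 to -0.36 for Acadsb, -0.55 to -0.14 for Hadh and 0.12 to 0.55 for Etfdh; quantile normalization gave -0.33, -0.0062 and 0.68. The cause was not tested. Absolute depth is unknown, and its part in these ranges was not tested.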

Other observations

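The genes here were chosen after their values were seen. Acacb, the acetyl-CoA carboxylase of the outer mitochondrial membrane whose product inhibits Cpt1a, was at 410.1 and 4744 FPKM in the Vehicle livers, against 60.1 and 2350 in the UAB126 livers. As for Pdk4, replicate 2 was the higher library in both groups. Oxct1, the enzyme that other tissues use to burn ketone bodies, was at 3.94 and 11.5 FPKM in the Vehicle livers, against 1.92 and 3.35 in the UAB126 livers. Mcee and Mut act after propionyl-CoA carboxylase. Mcee was at 304.0 and 555.1 FPKM in the Vehicle livers, against 169.5 and 265.7 in the UAB126 livers, and Mut at 40.8 and 32.1 FPKM in the Vehicle livers, against 64.1 and 46.6 in the UAB126 livers, so that these consecutive enzymes had opposite signs. Their annotated transcripts have 828 and 3674 bases, and neither passed the adjusted threshold (limma adjusted p = 0.387 and 0.393).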
